A study of Mus musculus with 6 samples.

Results

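Complex I of the mitochondrial respiratory chain is built from many nuclear genes, most of which carry the prefix Nduf, and their transcripts were followed here through osteoclast formation in mouse bone marrow-derived macrophages (BMMs). Every row of the expression table whose gene symbol starts with Nduf was taken, which gave 46 of 24940 genes. These comprise 36 complex I subunits (7 core and 29 accessory), 8 Ndufaf assembly factors, and Ndufa4 with its paralog Ndufa4l2, which were kept apart because Ndufa4 is now counted as a subunit of complex IV. Ndufb1 and the subunits encoded by the mitochondrial genome were not analysed here. The table holds 6 RNA-seq libraries in 3 conditions of 2 libraries each. All cells received 30 ng/mL M-CSF, the growth factor that keeps macrophage precursors alive. In the first condition no RANKL was added. The second had 100 ng/mL RANKL, the ligand that turns these precursors into bone-resorbing osteoclasts, and the last had the same RANKL plus 10 µg/mL LEA, the ethyl acetate fraction of an aqueous extract of the shiitake mushroom Lentinula edodes. The BMMs came from mice of 6 to 8 weeks, given as C57BL/6 in the sample labels and as male ICR mice in the methods of the study. Neither the labels nor the methods state when the RNA-seq cells were harvested, whether a solvent control was used for LEA, or whether replicates are separate cultures or animals. The p-values below therefore cover only the spread between replicate libraries, which may be technical.

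Complex I (NADH:ubiquinone oxidoreductase) passes electrons from NADH to ubiquinone and uses the energy to pump protons out of the mitochondrial matrix. It is L-shaped. The N module at the tip of the matrix arm oxidises NADH, the Q module below it reduces ubiquinone, and the P module in the inner membrane pumps protons. The core subunits carry the flavin, the iron-sulfur clusters and the ubiquinone site and are shared with bacteria, whereas the accessory subunits surround them and are needed for stability or assembly. The Ndufaf proteins help to build the complex and are not part of the finished enzyme. Osteoclasts are known for their many mitochondria.

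The stretches of promoter below are shown because the transcripts of these genes are compared with one another throughout, and because they hold the letters bound by 2 regulators known for nuclear genes of mitochondrial proteins, NRF1 and the estrogen-related receptors (ERR). Each is the RefSeq sequence of the mouse build GRCm38.p6, printed 5′ to 3′ on the gene's strand, with motif letters in capitals. Ndufb4 and Ndufs5 encode P module subunits, and Ndufaf4 is an assembly factor. Capitals mark NRF1 letters at −191, −79 and −22 bases from the start site and ERR letters at −55 in Ndufb4 (chr16:37654369-37654574, minus strand), NRF1 letters at −98 and the reverse complement of the ERR letters at −228 in Ndufs5 (chr4:123718260-123718429, minus strand), and NRF1 letters at −113 in Ndufaf4 (chr4:24897955-24897994, plus strand).
Ndufb4: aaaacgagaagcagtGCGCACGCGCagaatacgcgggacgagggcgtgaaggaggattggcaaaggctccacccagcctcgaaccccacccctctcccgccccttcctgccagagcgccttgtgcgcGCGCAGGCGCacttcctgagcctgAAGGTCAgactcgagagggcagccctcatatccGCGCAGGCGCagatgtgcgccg
Ndufs5: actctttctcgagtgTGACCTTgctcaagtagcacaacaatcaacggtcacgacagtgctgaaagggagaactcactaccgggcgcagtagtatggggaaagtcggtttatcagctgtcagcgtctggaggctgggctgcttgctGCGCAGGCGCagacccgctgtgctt
Ndufaf4: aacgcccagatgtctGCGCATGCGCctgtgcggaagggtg
Both strands of the 250 bases before the start site were searched in the 31 of 36 subunits, 7 of 8 assembly factors and 8791 of 11905 tested genes whose RefSeq start site lay within 200 bases of the start in the table. The NRF1 letters, GCGCA and GCGC separated by any base, were found in 6 subunit promoters (19.4%) and in 9.1% of all promoters of that length. The ERR letters AAGGTCA were in 3 (9.7%) against 2.8%, the YY1 letters AANATGGC in 4 (12.9%) against 4.8%, and the ETS letters CCGGAAG in 3 (9.7%) against 15.7%. None of the 5 core subunit promoters held the NRF1 or ERR letters. A match is a description of the sequence, not a binding site.

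Expression was given as FPKM, read fragments scaled to exon length and to the depth of the library. From the smallest steps of the values, the libraries were worth 46382100 to 49589272 reads, with 36610397 to 40026142 on genes. A subunit was covered by at least 660 reads in a library (Ndufc1, median over subunits and libraries 2177) and an assembly factor by 186 to 1159. Osteoclast markers summed over 9 genes reached 28.1 to 29.7 FPKM without RANKL, 5112 to 5948 FPKM with RANKL and 2557 to 2697 FPKM with RANKL + LEA, and the 6 macrophage markers reached 9657 to 13241, 3665 to 4349 and 5601 to 7178 FPKM in the same order. The 4 neutrophil markers were at 2.76 to 3.08, 0.325 to 0.351 and 0.938 to 1.73 FPKM with Ly6g at 0 in every library, the 5 osteoblast and stroma markers at 6.75 to 6.98, 3.30 to 3.48 and 4.10 to 5.84 FPKM with Bglap at 0 in every library, and the 3 endothelial markers at 1.01 to 1.08, 2.88 to 2.90 and 3.35 to 3.75 FPKM. The endothelial sum was mostly Kdr, with Cdh5 at most 0.396 FPKM and Pecam1 at most 0.125 FPKM, and in the stroma list Col1a1 and Col1a2 were lower with RANKL while Runx2 was higher with RANKL + LEA than with RANKL (0.90). No B cell, T cell or erythroid marker passed the filter described next. Most of the macrophage sum was Lyz2. By the limits described next, 5 of the 6 macrophage genes were called lower with RANKL, beside 17.8% of all tested genes (Cd68, at 0.15, was not called). With RANKL + LEA against RANKL, 3 were called higher (Adgre1, Lyz2 and Mertk), beside 4.54% of all tested genes. The other macrophage genes had log2 fold changes of 0.44 (Itgam), −0.12 (Csf1r) and −0.34 (Cd68) in that comparison. The part of these markers in the differences below was not tested. In bulk samples like these, fewer cells of a type and less RNA per cell cannot be told apart.

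Tests were made with limma on log2(FPKM + 0.1) over the 11905 genes that reached 0.5 FPKM in at least 2 libraries. Fold changes are on this scale, and the p-values were adjusted over all tested genes. A gene was called when its adjusted p was under 0.05 and its change at least 1.5-fold. Of the 46 rows, 45 passed the filter. The exception was Ndufa4l2, the hypoxia-responsive paralog of Ndufa4, which stood at 0.044 and 0.022 FPKM without RANKL, 0.197 and 0.045 FPKM with RANKL and 0.065 and 0.147 FPKM with RANKL + LEA.

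Transcripts of many complex I subunits rose with RANKL. Compared with cells without RANKL, 24 of the 36 subunits were higher and 0 were lower, against 17.8% of all tested genes called higher and 17.8% called lower. The log2 fold change was positive for all 36 subunits, beside 5958 of the 11905 tested genes. It ranged from 0.10 to 1.31 with a median of 0.77, whereas the median over all tested genes was 0.001. Both RANKL libraries lay above both libraries without RANKL for 35 of the 36 subunits, a pattern met by 37.9% of all tested genes (37.1% for the opposite order), and the exception was Ndufa2. By adjusted p alone, 32 subunits were higher (25% of all tested genes). The number called higher was 19 when replicate 1 without RANKL was left out, with Ndufa6, Ndufa8, Ndufa13, Ndufb4 and Ndufc1 no longer called, and 31 when replicate 2 without RANKL was left out. Ndufb4 and Ndufc1 also lost their calls without either RANKL library, Ndufa1 without RANKL replicate 1 and Ndufa8 without RANKL replicate 2.

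**Figure D1:**
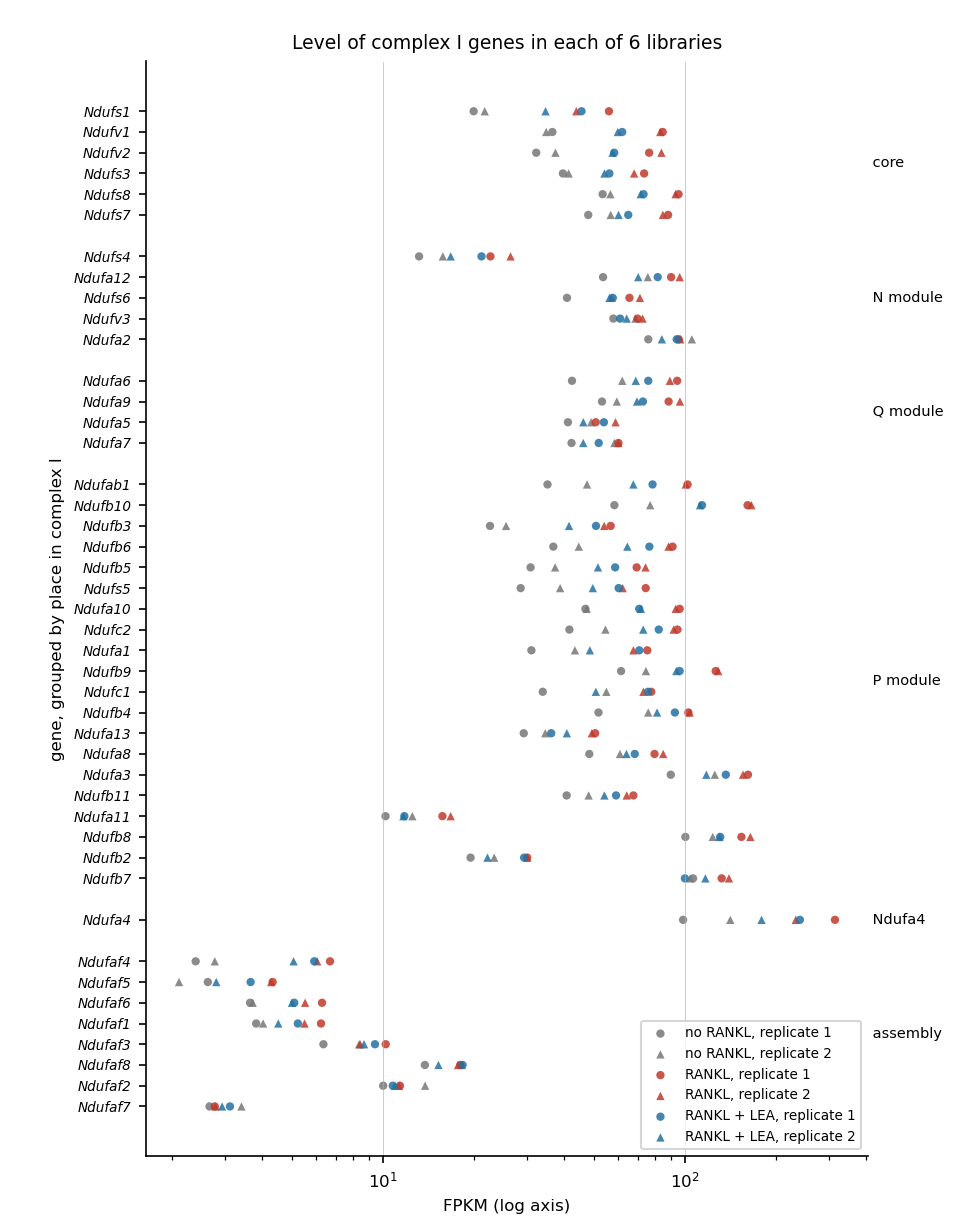
Level of 44 of the 45 tested genes in each of the 6 libraries, in FPKM on a logarithmic axis, grouped by place in complex I, with colour for the condition and shape for the replicate. The points with RANKL lie to the right of the points without RANKL for every core subunit shown, whereas for Ndufa2 the conditions overlap.

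All 7 core subunits rose with RANKL, with a median log2 fold change of 1.20 (range 0.73 to 1.24). In the N module, Ndufv1 (chr19:4007499-4012755 in mm10), which holds the flavin and the NADH site, stood at 36.5 and 34.8 FPKM without RANKL, 84.6 and 83.1 FPKM with RANKL and 62.1 and 60.1 FPKM with RANKL + LEA. Its 3 conditions did not overlap, and the RANKL change was 1.23 (SE 0.09, limma adjusted p = 2.34e-05). Ndufv2 (chr17:66078795-66101559), which carries an iron-sulfur cluster beside it, had 32.3 and 37.3, 76.3 and 83.8, and 58.5 and 57.7 FPKM in the same order of conditions. It was also separated in all 3 conditions, and rose by 1.20 (SE 0.11, limma adjusted p = 6.71e-05). Ndufs1 (chr1:63143592-63176822), the largest core subunit and a carrier of several iron-sulfur clusters, had 20.01 and 21.8, 56.2 and 43.8, and 45.6 and 34.6 FPKM. The libraries with RANKL + LEA reached into the range of those with RANKL alone but stayed above those without RANKL, and the RANKL change was 1.24 (SE 0.17, limma adjusted p = 5.08e-04).

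The Q module core subunits Ndufs3, Ndufs7 and Ndufs8 moved the same way, and each had separate conditions. The share of all tested genes with every condition separate was not counted, here or for Ndufv1 and Ndufv2. Both RANKL libraries lay above both libraries without RANKL in 37.9% of all tested genes. Both RANKL + LEA libraries lay below both RANKL libraries in 20.6%. Ndufs3 (chr2:90894636-90904721) stood at 39.5 and 41.3 FPKM without RANKL, 73.4 and 68.0 FPKM with RANKL and 56.3 and 54.3 FPKM with RANKL + LEA, a change of 0.81 (SE 0.10, limma adjusted p = 2.88e-04). Ndufs7 (chr10:80249452-80256792), which passes electrons to ubiquinone from its iron-sulfur cluster, had 48.0 and 56.9, 88.2 and 84.7, and 65.1 and 60.4 FPKM, a change of 0.73 (SE 0.11, limma adjusted p = 0.00116). Ndufs8 (chr19:3908863-3912774), the carrier of a further pair of clusters on that path, had 53.5 and 56.8, 95.5 and 93.3, and 73.1 and 71.5 FPKM, a change of 0.77 (SE 0.09, limma adjusted p = 2.87e-04). The changes of Ndufs1, Ndufv1 and Ndufv2 were within 1 SE of each other.

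The accessory subunits were more uneven. RANKL raised 17 of 29, with a median log2 fold change of 0.71. By module, 1 of 5 N module accessory subunits was called (Ndufs4, median of the group 0.50), a share near the 17.8% of all tested genes, 2 of 4 in the Q module (Ndufa6 and Ndufa9, median 0.50) and 14 of 20 in the P module (median 0.86). The difference between modules was not tested.

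The 5 accessory subunits with the largest change all belong to the P module. Ndufab1, the mitochondrial acyl carrier protein, which also serves mitochondrial fatty acid synthesis, had 35.1 and 47.5 FPKM without RANKL, 102 and 101 FPKM with RANKL and 78.3 and 67.6 FPKM with RANKL + LEA, a RANKL change of 1.31 (SE 0.15, limma adjusted p = 2.32e-04). Ndufb10, on the outer face of the membrane arm, had 58.5 and 76.9, 162 and 166, and 114 and 112 FPKM, a change of 1.29 (SE 0.13, limma adjusted p = 1.33e-04). By the mean of the 2 RANKL libraries, Ndufb10 was the most abundant subunit (164 FPKM), close to Ndufb8 (160 FPKM) and Ndufa3 (159 FPKM). In RANKL replicate 1, Ndufa3 (162.1 FPKM) was above Ndufb10 (161.6 FPKM). The membrane arm subunits Ndufb3, Ndufb6 and Ndufb5 followed. Ndufb3 had 22.7 and 25.6, 56.9 and 54.1, and 50.9 and 41.4 FPKM, and rose by 1.20 (SE 0.13, limma adjusted p = 1.47e-04). Ndufb6 had 36.7 and 44.6, 91.2 and 88.4, and 76.4 and 64.6 FPKM, and rose by 1.15 (SE 0.13, limma adjusted p = 2.11e-04). Ndufb5 had 30.9 and 37.3, 69.4 and 74.2, and 58.9 and 51.6 FPKM, and rose by 1.08 (SE 0.13, limma adjusted p = 2.39e-04). In each of these 5 genes the 3 conditions did not overlap. They were picked for their RANKL change, so their separation with and without RANKL adds no support. The share of all tested genes with 3 separate conditions was not counted.

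At the other end, Ndufa2, a thioredoxin-like subunit of the N module, had 75.8 and 106 FPKM without RANKL, 95.6 and 96.7 FPKM with RANKL and 94.1 and 84.1 FPKM with RANKL + LEA. The libraries without RANKL lay on both sides of all others, and the RANKL change was 0.10 (SE 0.16, limma adjusted p = 0.613), which became −0.14 when replicate 1 without RANKL was left out. Ndufv3, a small N module subunit, had 58.1 and 68.8, 69.8 and 72.6, and 61.1 and 64.3 FPKM, a change of 0.17 (SE 0.11, limma adjusted p = 0.239). In the Q module, Ndufa7 had 42.2 and 58.5, 60.4 and 60.4, and 51.9 and 46.2 FPKM (0.28, SE 0.16, limma adjusted p = 0.173). Ndufa5, in the same module, had 41.1 and 49.0, 50.8 and 59.0, and 54.0 and 46.2 FPKM (0.29, SE 0.14, limma adjusted p = 0.119). The rows of Ndufa5 and Ndufa7 are named for noncoding RefSeq transcripts of these genes, the only 2 such rows among the members. Ndufb7, a P module subunit of the intermembrane side, had 107 and 104, 133 and 140, and 100 and 117 FPKM. Its adjusted p was 0.0231 by limma, but its change of 0.37 (SE 0.11) stayed under 1.5-fold. Among the accessory subunits nearest to the fold limit, Ndufa8 was called at 0.60, while Ndufa3 and Ndufb11 were not at 0.58.

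**Figure D2:**
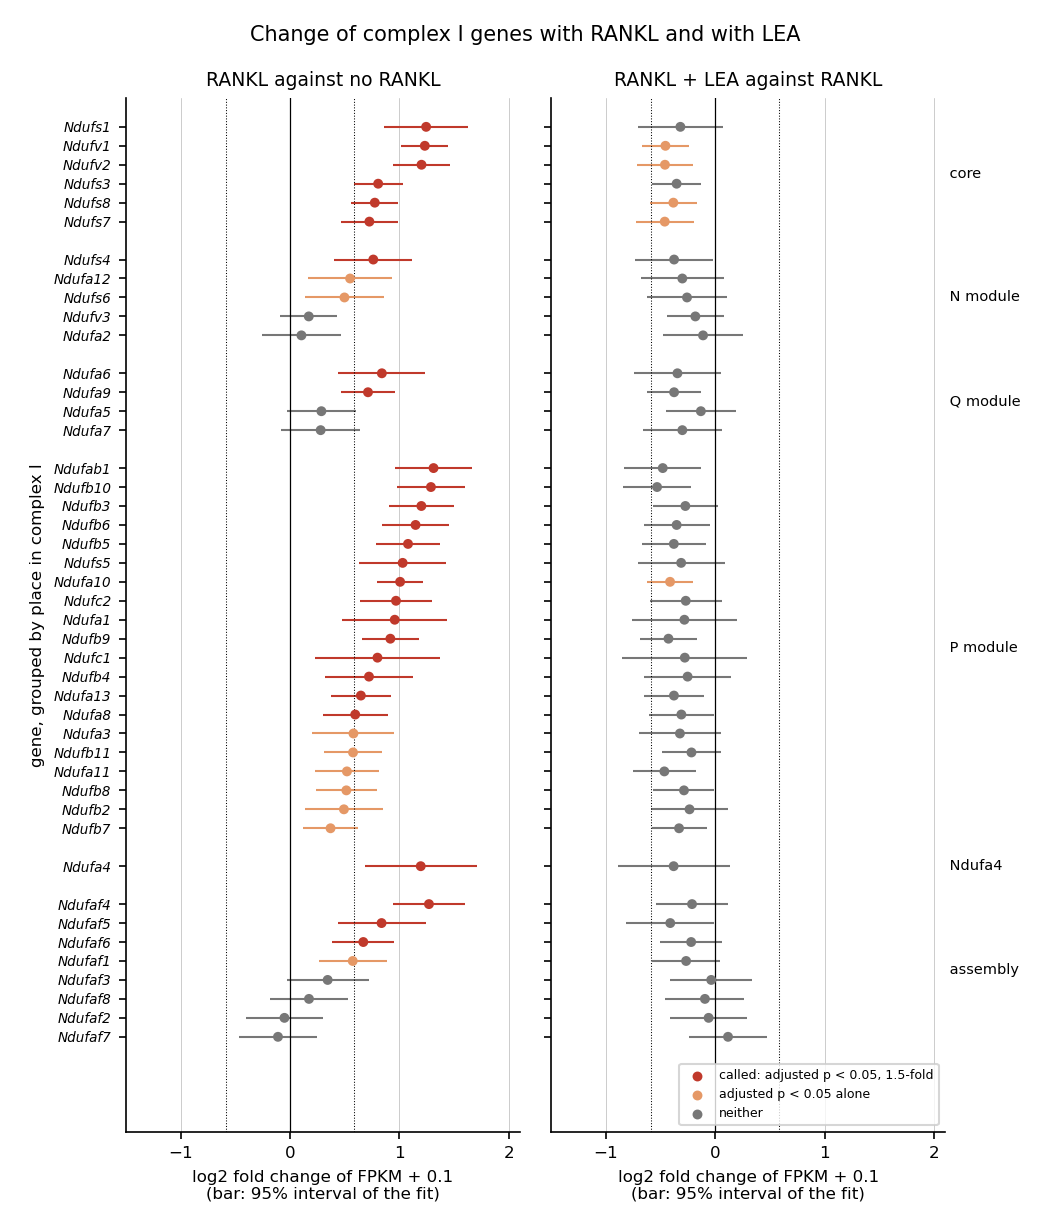
Log2 fold change of 44 of the 45 tested genes with its 95% interval for RANKL against no RANKL (left panel) and for RANKL + LEA against RANKL (right panel), coloured by whether it was called, passed the adjusted p alone or neither, with dotted lines at 1.5-fold. The points of the first comparison lie to the right of 0 for every subunit shown and those of the second to the left of 0. The assembly factors spread from −0.11 to 1.27 in the first comparison and from −0.41 to 0.12 in the second.

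Counting regardless of strand limits some single genes. Of the 36 subunits, 11 share 4.4% to 39.0% of their exon bases with another gene (GENCODE vM21, GRCm38). Ndufb6 shared 39.0% with Smim27 on the opposite strand, which was listed at 4.92 to 9.47 FPKM, and Ndufa13 shared 30.0% with Tssk6, which was listed at 1.49 to 2.19 FPKM. Ndufb9 shared 28.6% with a predicted gene on its own strand. Reads in such bases cannot be assigned to either gene.

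The libraries of a condition were not alike for these genes. Without RANKL, replicate 2 was higher than replicate 1 in 42 of 45 members, with a median ratio of 1.21 against 1.06 over all tested genes. The gap was larger in the 15 members with exons under 600 bases in all (median ratio 1.40) than in the 30 longer ones (1.18). All tested genes also showed it, with a median ratio of 1.155 under 600 bases and 1.057 in longer genes. Spearman's rho between exon length and this ratio over the 45 members, which share the same 2 libraries, was −0.68. Ndufc1, a small P module subunit, was the extreme at 1.62. With RANKL, replicate 2 was higher in 18 of 45 (median ratio 0.98 against 0.914 over all tested genes, rho −0.08). With RANKL + LEA it was higher in 5 of 45 (median ratio 0.89 against 0.953, rho 0.14). The part of these gaps in the changes was not tested beyond the counts without each library.

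**Figure D3:**
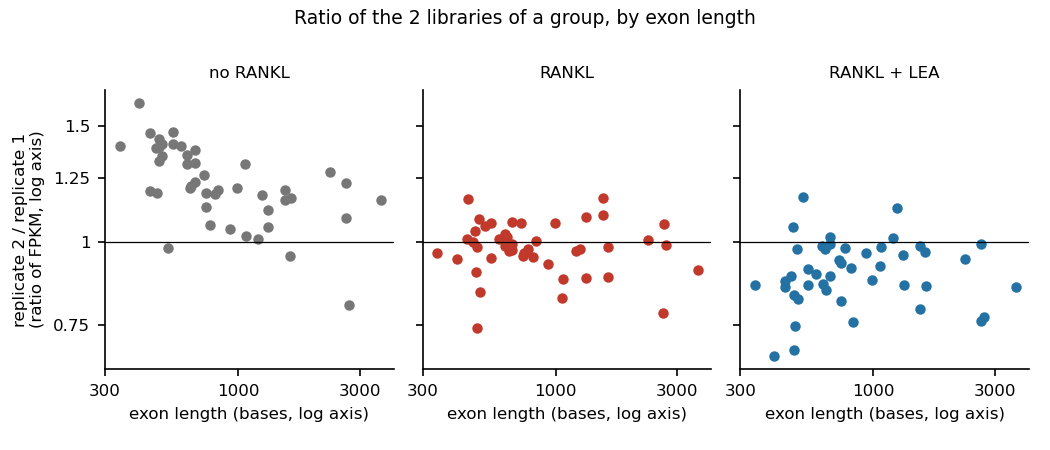
Ratio of replicate 2 to replicate 1 against exon length in bases for the 45 tested genes, 1 panel per condition, with the ratio on a logarithmic axis. Without RANKL the short genes lie highest, up to 1.62 for Ndufc1, and 42 of 45 lie above 1.

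Ndufa4, the complex IV subunit, was the most abundant row in this set with RANKL. It had 98.8 and 142 FPKM without RANKL, 315 and 233 FPKM with RANKL and 241 and 180 FPKM with RANKL + LEA. RANKL alone raised it by 1.19 (SE 0.22, limma adjusted p = 0.00269), and its libraries with RANKL + LEA overlapped those with RANKL alone (−0.38, SE 0.22, limma adjusted p = 0.361).

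The assembly factors were present at far lower levels than the subunits on the per-length scale. Their median FPKM was 3.80 without RANKL, 6.15 with RANKL and 5.28 with RANKL + LEA, compared with 47.6, 83.0 and 63.0 for the subunits. RANKL raised 3 of 8 and lowered 0 (17.8% of all tested genes were called in each direction), with a median log2 fold change of 0.46 (range −0.11 to 1.27). With a pseudocount of 1, or when RANKL replicate 1 was left out, 2 were called. Ndufaf4, which works with Ndufaf3 on the Q module, had 2.40 and 2.78 FPKM without RANKL, 6.69 and 6.07 FPKM with RANKL and 5.93 and 5.07 FPKM with RANKL + LEA. It rose by 1.27 (SE 0.14, limma adjusted p = 1.96e-04), beside 1.31 in Ndufab1, the subunit with the largest change. Ndufaf3 itself had 6.37 and 8.36, 10.2 and 8.42, and 9.43 and 8.68 FPKM (0.34, SE 0.16, limma adjusted p = 0.115). Ndufaf5, which hydroxylates an arginine of Ndufs7, had 2.64 and 2.12, 4.32 and 4.27, and 3.65 and 2.81 FPKM, and rose by 0.84 (SE 0.17, limma adjusted p = 0.00485). Its stabilising partner Ndufaf8 did not separate, at 13.8 and 18.3, 18.1 and 17.8, and 18.4 and 15.3 FPKM (0.17, SE 0.16, limma adjusted p = 0.39).

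Ndufaf6, which acts early in assembly, had 3.64 and 3.71, 6.30 and 5.54, and 5.10 and 5.01 FPKM, and rose by 0.67 (SE 0.12, limma adjusted p = 0.00259). When RANKL replicate 1 was left out, its change was 0.58, under the fold limit. Ndufaf1, a member of the membrane arm assembly complex, had 3.81 and 4.02, 6.25 and 5.51, and 5.24 and 4.51 FPKM. Its change of 0.57 (SE 0.13, limma adjusted p = 0.00865) was just under the fold limit. For the last 2, the libraries with and without RANKL overlapped. Ndufaf2, a chaperone of the late N module step, had 10.0 and 13.8, 11.4 and 11.3, and 10.80 and 10.98 FPKM (−0.05, SE 0.15, limma adjusted p = 0.804). Ndufaf7, a methyltransferase needed for assembly, had 2.67 and 3.41, 2.78 and 2.80, and 3.12 and 2.94 FPKM (−0.11, SE 0.16, limma adjusted p = 0.586).

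Among 13 tested genes known for complex I assembly without the Nduf prefix, RANKL raised 7 and lowered 1. Of all tested genes, 17.8% were called in each direction. Those higher were Ecsit (1.08), a partner of Ndufaf1, Timmdc1 (1.05), which works on the membrane arm, Tmem70 (0.95), which also serves ATP synthase assembly, Foxred1 (0.84), Aifm1 (0.83) and its import partner Chchd4 (0.71), and Dmac2 (0.70), all as log2 fold changes. When replicate 1 without RANKL was left out, Chchd4 (0.55) and Dmac2 (0.51) were under the fold limit, as was Chchd4 without RANKL replicate 1. Dmac1, a distal membrane arm assembly gene, went the other way, at 47.9 and 63.1 FPKM without RANKL, 26.8 and 22.5 FPKM with RANKL and 29.5 and 24.7 FPKM with RANKL + LEA. The libraries without RANKL lay apart from the other 4, and the RANKL change was −1.16 (limma adjusted p = 6.63e-04). With RANKL + LEA against RANKL, 0 of the 13 were called by limma or voom. An unadjusted p under 0.05 was met by 2 of them, beside 2807 of the 11905 tested genes.

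LEA was added to learn what it changes in cells that also receive RANKL. With RANKL + LEA, the subunits were lower than with RANKL alone by a small amount in nearly the whole set. The log2 fold change was negative for all 36 subunits, beside 4987 of the 11905 tested genes. It ranged from −0.53 (Ndufb10) to −0.11 (Ndufa2) with a median of −0.33, against 0.049 over all tested genes. This comparison uses the same 2 RANKL libraries as the first, with opposite sign, so the changes in both are not independent. No subunit passed the 1.5-fold limit together with the adjusted p, against 1.77% of all tested genes called lower and 4.54% called higher. Over all genes, 540 were called higher and 211 lower, and this split was 480 to 293 with median-ratio scaling and 439 to 328 with quantile normalization. By limma's adjusted p alone 5 subunits were lower (2.7% of all tested genes), and at an unadjusted p under 0.05 there were 19 (8.16%). With voom on whole reads recovered from the FPKM, 0 were called with the fold limit and 11 passed the adjusted p alone (4.79%). The count by adjusted p alone was 12 with quantile normalization (5.43% of all tested genes) and 15 with median-ratio scaling (5.59%). It was 1 with no filter on low values (0.469%) and 0 with no trend (1.95%). The passes depended on having all 4 libraries compared. With 1 of them left out, a condition held 1 library and far fewer genes of any kind passed. The 2 libraries with RANKL + LEA lay below both RANKL libraries for 32 of 36 subunits, compared with 20.6% of all tested genes (30.1% for the opposite order), the exceptions being Ndufs1, Ndufa5, Ndufa1 and Ndufc1.

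The 5 subunits that passed the adjusted p alone were 4 core subunits and Ndufa10. Their library values are given above for Ndufv1 (−0.46, SE 0.09, limma adjusted p = 0.0273), Ndufv2 (−0.46, SE 0.11, limma adjusted p = 0.0434), Ndufs8 (−0.38, SE 0.09, limma adjusted p = 0.0452) and Ndufs7 (−0.46, SE 0.11, limma adjusted p = 0.0469). Ndufa10, a P module subunit on the matrix side, had 46.9 and 47.4 FPKM without RANKL, 96.3 and 93.4 FPKM with RANKL and 70.7 and 71.6 FPKM with RANKL + LEA, with a LEA change of −0.41 (SE 0.09, limma adjusted p = 0.0334). The pairs of libraries in each condition of Ndufa10 were close together. The 5 next by p were Ndufb10 (−0.53, SE 0.13, limma adjusted p = 0.0503), Ndufb9 (limma adjusted p = 0.0585), Ndufa11 (limma adjusted p = 0.0598), Ndufs3 (limma adjusted p = 0.0641) and Ndufa9 (limma adjusted p = 0.0671).

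In these 5 genes, too, the libraries with RANKL + LEA lay below those with RANKL, as in 20.6% of all tested genes. They were picked by p in this same comparison, so this order adds no support. Ndufb9, a membrane arm subunit, had 61.6 and 74.4 FPKM without RANKL, 127 and 129 FPKM with RANKL and 96.3 and 93.9 FPKM with RANKL + LEA, a LEA change of −0.43 (SE 0.11). Ndufa11, which sits in the membrane between the arms, had 10.2 and 12.5, 15.8 and 16.8, and 11.8 and 11.7 FPKM, a LEA change of −0.47 (SE 0.13). Its LEA libraries lay within the range of the libraries without RANKL. Ndufa9, a Q module subunit that binds a nucleotide cofactor, had 53.3 and 59.6, 88.5 and 96.5, and 72.7 and 69.6 FPKM, a LEA change of −0.38 (SE 0.11). In Ndufs3 the LEA change was −0.35 (SE 0.10). With 1 library left out or under the other settings tried, the adjusted p ranged from 0.00506 to 0.116 in Ndufv1, 0.00582 to 0.16 in Ndufa10, 0.0139 to 0.206 in Ndufv2, 0.00762 to 0.171 in Ndufs8 and 0.00634 to 0.18 in Ndufs7.

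In Ndufs1 the LEA change was −0.32 (SE 0.17, limma adjusted p = 0.304). As groups, the core subunits had a median of −0.40 and the accessory subunits one of −0.31, and the difference between them was not tested. The assembly factors had a median of −0.15 with 0 called by limma or voom. An unadjusted p under 0.05 was met by 1 of 8, beside 2807 of the 11905 tested genes. For Ndufaf4 the LEA change was −0.21 (SE 0.14, limma adjusted p = 0.437) and for Ndufaf5 it was −0.41 (SE 0.17, limma adjusted p = 0.202).

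**Figure D4:**
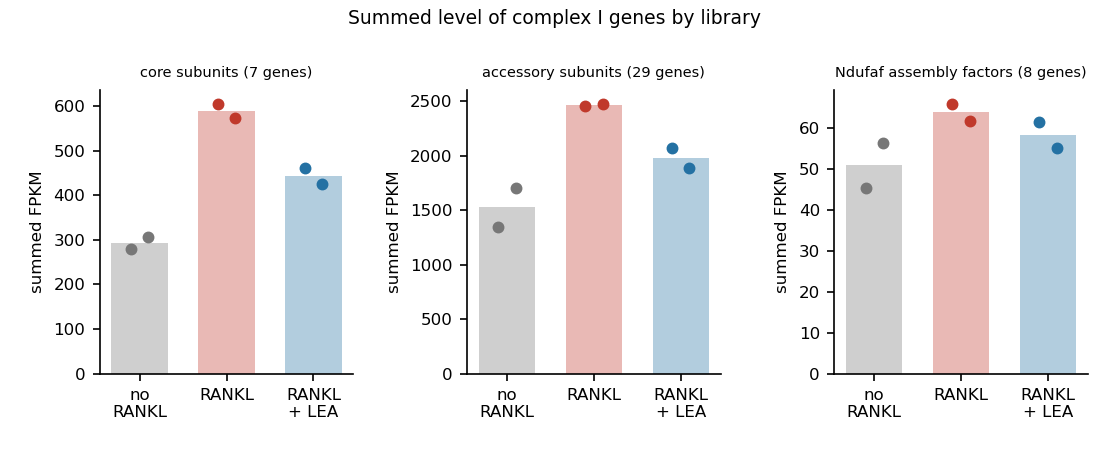
Summed FPKM of the core subunits, accessory subunits and assembly factors, with points for the libraries and bars for the mean of the 2 libraries of a condition. The core sum is 279 to 307 FPKM without RANKL, 573 to 606 FPKM with RANKL and 425 to 462 FPKM with RANKL + LEA.

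Summed over the 36 subunits, the level was 1625 and 2014 FPKM without RANKL, 3065 and 3054 FPKM with RANKL, and 2533 and 2313 FPKM with RANKL + LEA. The sums of the 3 conditions did not overlap, and those with RANKL + LEA lay between the others. The assembly factors summed to 45.4 and 56.5, 66.1 and 61.7, and 61.7 and 55.3 FPKM, with the LEA libraries reaching into the range without RANKL.

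Compared with cells without RANKL, cells with RANKL + LEA had 13 of 36 subunits higher and 0 lower, against 15.5% of all tested genes called higher and 11.8% called lower. This comparison shares its libraries with both others. The median log2 fold change of the subunits was 0.42, against 0.064 over all tested genes, and 18 subunits were higher by adjusted p alone (22.6% of all tested genes). The called genes included the core subunits Ndufs1, Ndufv1 and Ndufv2 and the P module subunits Ndufa1, Ndufa10, Ndufab1, Ndufb3, Ndufb5, Ndufb6, Ndufb10, Ndufc2 and Ndufs5. Of the 9 accessory subunits of the N and Q modules, 0 were called by limma or voom. An unadjusted p under 0.05 was met by 3 of them, beside 5771 of the 11905 tested genes. Ndufa9 passed the adjusted p alone (0.34, limma adjusted p = 0.0368). The difference between modules was not tested. Both LEA libraries lay above both libraries without RANKL for 25 of 36 subunits (39.7% of all tested genes). When replicate 1 without RANKL was left out, 8 subunits were called, and Ndufb5, Ndufb10, Ndufc2, Ndufs5 and Ndufa1 were not. Of the assembly factors, Ndufaf4 was higher (1.06, SE 0.14, limma adjusted p = 7.91e-04), and Ndufa4 was higher by 0.81 (limma adjusted p = 0.0209, 0.0883 when replicate 1 without RANKL was left out and 0.111 when RANKL + LEA replicate 1 was left out).

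The other nuclear-encoded respiratory genes are given for comparison. Of 38 listed genes of complexes II to V, 36 were called higher with RANKL than without, beside 24 of 36 for complex I. Among all tested genes the share was 17.8%. The median log2 fold change was 1.02, beside 0.77 for complex I. With RANKL + LEA against RANKL the median was −0.37 with 1 gene lower, beside −0.33 and 0 for complex I. Of all tested genes, 1.77% were called lower. With RANKL + LEA against no RANKL, 22 of 38 were higher with a median of 0.64, beside 13 of 36 and 0.42. The share of all tested genes called higher was 15.5%. Whether complex I differed from the other complexes was not tested.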

How the data were processed

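RNA libraries of the 3 conditions were sequenced by the authors as paired-end reads, aligned with HISAT2 to mm10 and summarised with HOMER over exons of condensed genes on both strands. Versions of these tools and the time of harvest are not stated in the paper or labels, and the labels and methods name different mouse strains and kits. The deposited values are FPKM per gene and library, scaled by the authors to sequencing depth and exon length. The authors also deposited lists of differentially expressed gene symbols, which were not used.

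The members are all rows whose symbol starts with Nduf, and subunits were grouped by their known modules. Members and gene lists were chosen with earlier results of these data known. log2(FPKM + 0.1) was modelled in R 4.3.3 by limma 3.58.1, using lmFit, contrasts and a trended eBayes on all 6 libraries, with 3 residual degrees of freedom, for the 11905 of 24940 genes that reached 0.5 FPKM in 2 or more libraries. P-values were adjusted by Benjamini-Hochberg over all tested genes in each of 3 comparisons, and genes with an adjusted p under 0.05 that moved at least 1.5-fold were called. Intervals are 95%. All low values were whole multiples of 1 read within 0.1 reads, so depths and whole reads were recovered. The fit was tested on simulated data.

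Library values of 1 member are not reported here, although it is included in the counts, sums and medians. They are given for the other core subunits, assembly factors, Ndufa4 and Ndufa4l2, the 5 accessory subunits with the largest and the 5 with the smallest RANKL change, and up to 10 members called or nearest to a call with LEA. Other assembly genes are named where called, and genes of complexes II to V are given by counts. Alternatives were other pseudocounts (1 and 0.01), no filter or a filter of 2 FPKM, quantile or median-ratio scaling, a replicate block, only the 4 libraries compared, no trend, voom on recovered reads, no fold limit or a 2-fold limit, and each library left out. Exon overlap used GENCODE vM21, and promoters came from RefSeq GRCm38.p6.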

Additional observations from a re-analysis of the deposited data

How the results depend on the processing

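The counts of called subunits were 24 with RANKL, 0 with LEA and 13 for RANKL + LEA against no RANKL. The shares of all tested genes were 17.8% higher, 1.77% lower and 15.5% higher in the same order. With no fold limit 5 subunits were lower with LEA (2.7% of all tested genes). At that setting 2 assembly factors were higher with RANKL + LEA than without RANKL (22.6%). With a 2-fold limit the counts were 11 subunits and 1 assembly factor with RANKL, beside 1178 of the 11905 tested genes called higher. For RANKL + LEA against no RANKL there were 0 subunits at that limit, beside 972 tested genes called higher. With median-ratio scaling 1 subunit, Ndufb10 (−0.59, limma adjusted p = 0.0229), was lower with LEA, beside 293 tested genes. The other settings that kept all 6 libraries gave counts of members within 1.5 times the main ones. Each library left out in turn gave 19 to 31 subunits with RANKL, 0 with LEA and 8 to 17 for RANKL + LEA against no RANKL, the lowest counts without no RANKL replicate 1, and 2 to 4, 0 and 1 to 2 assembly factors. The number of all tested genes called also moved with the library left out. A lone library in a condition was assumed to vary like the others.

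For the RANKL and LEA comparisons, the sign of the log2 fold change turned in some members with a library left out, none of them called in the comparison concerned. Signs of members not called were not followed for RANKL + LEA against no RANKL. The RANKL change ranged from −0.14 to 0.34 in Ndufa2, −0.029 to 0.38 in Ndufaf8, −0.28 to 0.18 in Ndufaf2 and −0.28 to 0.059 in Ndufaf7. The LEA change ranged from −0.18 to 0.10 in Ndufaf3, −0.23 to 0.037 in Ndufaf8 and −0.57 to 0.008 in Ndufc1. The cause was not tested. Of the called subunits, Ndufc1 lost its RANKL call with no filter (adjusted p 0.094) and with no trend (0.0583), and Ndufa8 lost it with quantile normalization, at a change of 0.57. Of the calls for RANKL + LEA against no RANKL, Ndufa10 was lost with a pseudocount of 1 and with median-ratio scaling, Ndufa1 with no filter, with only the 4 libraries compared and with no trend, and Ndufa4 with no filter. Over 17 alternatives, the other fold limits left out, 735 of 765 RANKL values and 760 of 765 LEA values of the 45 members kept both direction and side of the limits, as did 237 of 255 values of the 15 members called for RANKL + LEA against no RANKL.

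The labels do not say whether same-numbered libraries are paired, and the correlations across genes cannot settle it. Deviations of same-numbered libraries had correlations of −0.08 (no RANKL and RANKL), 0.12 (RANKL and RANKL + LEA) and −0.26 (no RANKL and RANKL + LEA) across genes. With a replicate block the counts of called subunits were 24, 0 and 13, and those of assembly factors 3, 0 and 1. A block with the numbers of the libraries without RANKL crossed, chosen after seeing the data, gave the same counts. By adjusted p alone, 0 subunits were lower with LEA under the block (1.65% of all tested genes). There were 19 under the crossed block (6.84%), against 5 with no block (2.7%).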
